A study of Saccharomyces cerevisiae with 8 samples.

Results

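Budding yeast chromatin around the 16 centromeres was described from the accessible sites called there from transposase-tagged DNA (ATAC-seq). The members were the nuclear peaks whose summit, the position of highest fragment pile-up in a peak, lay within 20 kb of an annotated centromere of the sacCer3 (R64) genome. This rule uses position alone and selected 403 of 8559 nuclear peaks (9025 peaks with the mitochondrial genome and the synthetic sequence) over 8 libraries. The members' stretch holds 5.32% of the nuclear bases, and 4.71% of the nuclear peaks fell in it. The outermost member had its summit 19884 bp from its centromere, and the nearest peak left out lay 20293 bp away.

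The libraries came from a study of a human locus rebuilt as synthetic DNA, HPRT1, and of the same sequence written backwards without complementing it, HPRT1R. The 4 strains were HPRT1R as an episome grown in SC-Leu, HPRT1R integrated on chromosome XI grown in YPD, HPRT1 as an episome in SC-Leu and HPRT1 integrated on chromosome XI in YPD. All were BY4741 (his3Δ1 leu2Δ0 met15Δ0 ura3Δ0), with 2 independent clones each, called replicates 1 and 2, and all were taken in mid-log phase. There was no strain without a synthetic locus, the vector of the episome carries a yeast centromere and LEU2 of its own, and the integration site at YKL162C-A lies outside the members' stretch. Where the locus sits and the medium change together, so the effects of these cannot be told apart. The lists held 988 to 1284 nuclear peaks and give no read totals. The lowest local background in a list, which stands in for depth, was 4.97 to 6.93 fragments.

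Each budding yeast centromere is a short point element made of 3 parts. CDEI binds the factor Cbf1, CDEII is very rich in A and T and is wrapped by a single nucleosome that holds the histone variant Cse4, and CDEIII binds the CBF3 complex on which the kinetochore is built. The flanking chromatin is rich in cohesin, which holds sister chromatids together, and centromeres replicate early in S phase. ATAC-seq detects stretches that the transposase can enter, which in yeast are mostly the nucleosome-free regions upstream of genes.

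The annotated centromeres were 111 to 120 bp long (median 118), and their CDEII stretch was 86.9% to 97.6% A and T. The 3 printed here are CEN11, CEN5 and CEN2, which had the nearest summits that recurred in at least 6 libraries. They run 5′ to 3′ on the strand of the CDEI to CDEIII order, with CDEI and CDEIII in capitals and CDEII in lower case (RefSeq, R64). CEN11 has chrXI:440129-440246 on the minus strand, CEN5 chrV:151987-152104 on the plus strand and CEN2 chrII:238207-238323 on the plus strand.
CEN11: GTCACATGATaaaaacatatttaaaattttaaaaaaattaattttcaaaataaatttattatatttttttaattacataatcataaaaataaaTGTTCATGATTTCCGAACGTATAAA
CEN5: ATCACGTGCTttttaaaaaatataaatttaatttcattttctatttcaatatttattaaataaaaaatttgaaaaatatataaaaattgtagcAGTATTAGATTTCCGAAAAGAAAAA
CEN2: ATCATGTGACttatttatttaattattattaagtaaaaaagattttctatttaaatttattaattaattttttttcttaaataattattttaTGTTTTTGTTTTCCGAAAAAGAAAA
The Cbf1 core TCACNTG was found in CDEI of 16 of the 16 centromeres, on one or the other strand, and the full palindrome CACGTG, which overlaps it, in 8. The letters CCGAA, part of the CBF3 contact site, were in CDEIII of 16 of 16, and TTCCGAA in 14.

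No peak of any list overlapped a centromere. The count was 0 of 16 centromeres in each of the 8 libraries, which allows a share of up to 18.8% in a library. Among all nuclear windows of 118 bp, a peak overlapped 3.9% to 5.08% per library, so 0.624 to 0.813 of 16 windows would be overlapped at the rate of the whole genome. All 16 centromeres lie outside protein-coding genes, and among windows wholly outside such genes a peak overlapped 13.1% to 17.0% per library, or 2.1 to 2.73 of 16. The libraries share the same 16 sites, and a test over libraries carries no information once the count is 0 in each, so none is given. The chromosomal centromere from which the vector's own element derives is not given in the sources used here, so the placement of reads there is uncertain in the episome libraries.

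The peak nearest to a centromere had its summit 82 bp from CEN4, between RMD1 and NTH1, which codes for a trehalase. It was called in 1 library, HPRT1R integrated replicate 1, over chrIV:449868-450059 and with a fold enrichment of 2.80 at the summit, which is near the low end of that list (percentile 15.1). Fold enrichment is the fragment pile-up at the summit over the local background of the same library. For the middle centromere of the 16, the nearest summit was 9629 and 10591 bp away in the HPRT1R episome libraries, 3832 and 7227 bp in the HPRT1R integrated ones, 8222 and 9155 bp in the HPRT1 episome ones and 3877 and 7796 bp in the HPRT1 integrated ones. The median over all nuclear positions was 3231 to 4401 bp. Centromeres thus had their nearest summit further off than the middle genome position in 7 of 8 libraries, the exception being HPRT1 integrated replicate 1, with 3877 bp for centromeres and 3996 bp for all positions.

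Taken over the 16 centromeres together, peaks were on average sparser within 20 kb than elsewhere. Within 20 kb there were 6.08 and 6.54 summits per 100 kb in HPRT1R episome libraries, 10.3 and 9.50 in HPRT1R integrated, 7.17 and 6.70 in HPRT1 episome and 9.04 and 7.48 in HPRT1 integrated libraries. In the rest of the genome there were 8.77 and 8.46 summits per 100 kb in HPRT1R episome, 10.7 and 9.71 in HPRT1R integrated, 8.36 and 8.27 in HPRT1 episome and 8.87 and 8.27 in HPRT1 integrated libraries. The density within 20 kb over that in the rest was 0.693 and 0.773 in the HPRT1R episome, 0.965 and 0.979 in the HPRT1R integrated, 0.858 and 0.810 in the HPRT1 episome and 1.02 and 0.904 in the HPRT1 integrated strain. It was below 1 in 7 of 8 libraries, with a mean log2 ratio of -0.20 ± 0.19 (SD, n = 8, exact two-sided sign-flip p = 0.0156). The libraries share the same 16 centromeres, so this p measures the spread between libraries and not between centromeres. By centromere, the mean ratio was below 1 at 8 of the 16. Over the 20 kb as a whole gene content was similar, with 28.3% of bases outside protein-coding genes and 5.20 coding starts per 10 kb. In the rest these were 27.1% and 4.96. By distance, coding starts per 10 kb were 3.84 from 0 to 1 kb, 6.25 from 1 to 2 kb and 5.94 from 2 to 5 kb. They were 5 from 5 to 10 kb and 5.125 from 10 to 20 kb.

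**Figure D1:**
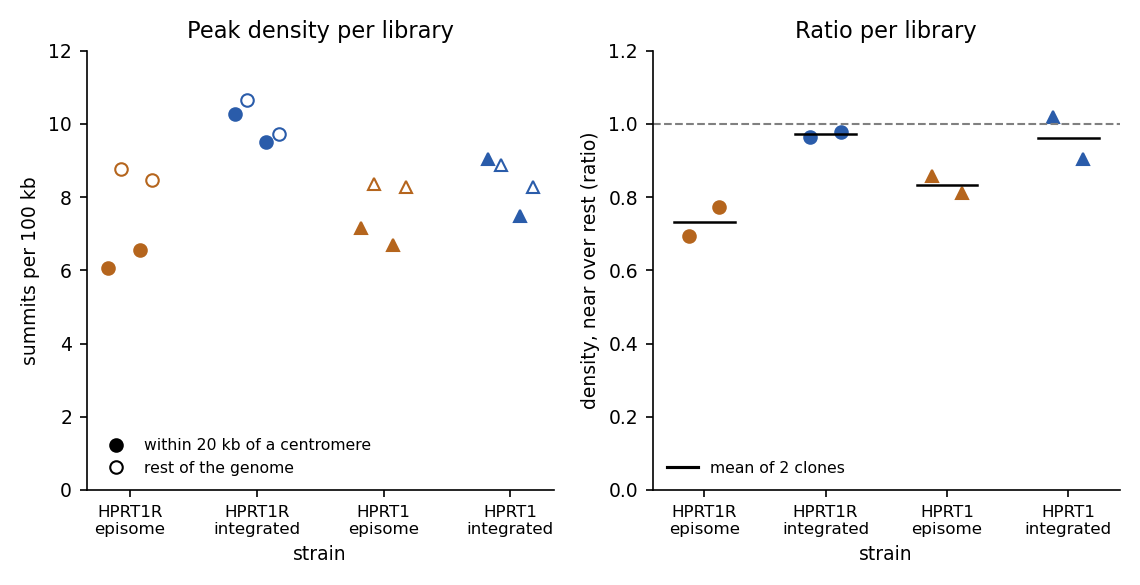
Summits per 100 kb within 20 kb of a centromere (filled) and in the rest of the genome (open) for the 8 libraries by strain, and the ratio of both with the mean of the 2 clones as a bar. The ratio lies between 0.693 and 0.858 in the 4 episome libraries and between 0.904 and 1.02 in the 4 integrated ones.

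The difference was largest within 5 kb of the centromere. Between 0 and 1 kb from a centromere 13 summits were called over the 8 libraries, and the geometric mean of the density ratio was 0.512 (8 of 8 libraries below 1, adjusted exact p = 0.0195). Between 1 and 2 kb there were 9 summits and a ratio of 0.370 (8 of 8 below 1, adjusted exact p = 0.0195), and between 2 and 5 kb 39 summits and a ratio of 0.521 (7 of 8 below 1, adjusted exact p = 0.0260). From 5 to 10 kb there were 99 summits at a ratio of 0.865 (7 of 8 below 1, adjusted exact p = 0.0488). From 10 to 20 kb the 243 summits gave a ratio of 1.04, with 4 libraries below 1 and 4 above (adjusted exact p = 0.406). These are exact two-sided sign-flip permutation tests of the log2 ratio with Benjamini-Hochberg adjustment over the 5 bins, n = 8 libraries. As the libraries share the same centromeres and sites, the p-values measure the spread between libraries and do not test centromeres as a class.

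**Figure D2:**
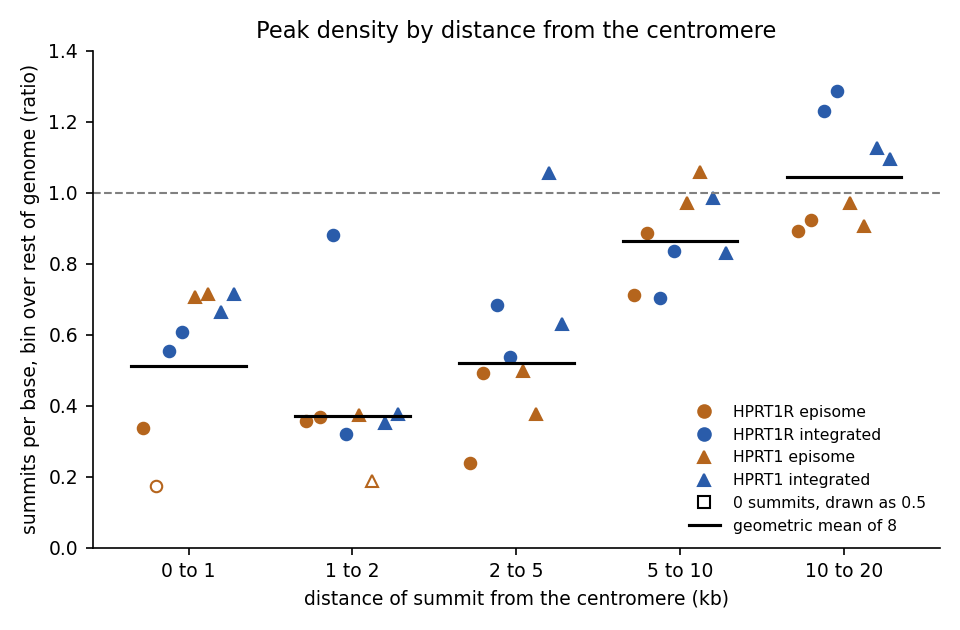
Density of summits in each distance bin over the density in the rest of the genome (ratio, 1 dashed), one point per library, with the geometric mean of the 8 as a bar and open symbols where a library had 0 summits and 0.5 was used. The geometric mean is 0.512, 0.370 and 0.521 in the 3 bins within 5 kb and 1.04 from 10 to 20 kb.

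The inner bins rest on few places. A region joins peaks of the 8 lists that overlap by at least 1 bp. Placed by their median summit, 3, 2 and 13 regions lay in these bins, though single summits of a region can fall in a neighbouring bin. From 0 to 1 kb these were a region by CEN5 called in 8 libraries, 1 by CEN11 in 6 and 1 by CEN4 in 1. The CEN5 summit nearest to the centromere lay beyond 1 kb in HPRT1R episome replicate 2 (1042 bp) and HPRT1R integrated replicate 1 (1013 bp). The ratios of the 8 libraries there thus read the same few sites again and are not independent. The share of bases outside protein-coding genes was 51.0% from 0 to 1 kb, where the centromere itself sits in an intergenic stretch, and 25%, 26.1%, 22.4% and 29.9% in the bins further out. With summits and bases outside genes only, an alternative chosen after seeing the data, the log2 ratio was -1.59 from 0 to 1 kb, the 5 to 10 kb difference lost its call (-0.06, adjusted exact p = 0.63) and the 10 to 20 kb bin lay below the rest (-0.31, adjusted exact p = 0.0130). Without any 1 library other than HPRT1 episome replicate 2 and HPRT1 integrated replicate 1, the adjusted exact p of the 2 to 5 kb bin was 0.0521, and without any 1 other than HPRT1 episome replicate 2, that of the 5 to 10 kb bin was 0.0586 to 0.0977.

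Individual centromeres differed widely in how many peaks surrounded them, with 10 to 43 members each (median 27.5) over the 8 libraries. CEN3 had 43 members and CEN13 had 42, at 1.5 and 1.45 times the density of the rest, averaged over the libraries. CEN16 had 10, CEN12 had 11, CEN6 and CEN9 had 12 each and CEN15 had 13, at 0.345, 0.371, 0.401, 0.400 and 0.461 times the rest, and each of these 5 was below 1 in 8 of 8 libraries. The mean ratio was below 1 at 8 of the 16 centromeres. The low mean over all 16 thus came from some centromeres and not from each. Members lay on both sides, 207 to the left and 196 to the right. The stretch around a centromere that no peak of any list entered was 5370 bp at its shortest, at CEN14, and 26678 bp at its longest, at CEN15, with a median of 14832 bp.

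**Figure D3:**
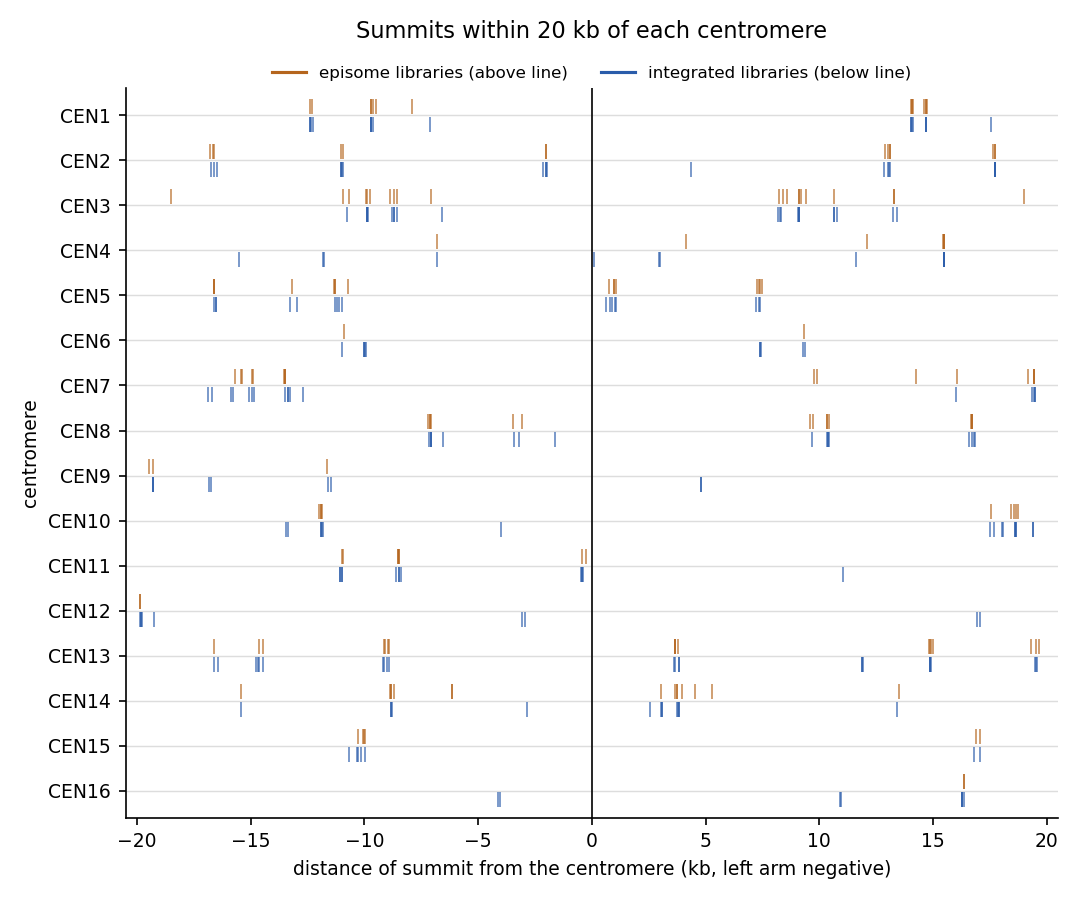
Summits of the 403 members by signed distance in kb from each of the 16 centromeres, episome libraries above each line and integrated libraries below. Stacked ticks are sites found in several libraries, such as that about 1 kb right of CEN5, and CEN6, CEN12, CEN15 and CEN16 have 10 to 13 members each.

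Only CEN5 and CEN11 had a recurrent peak within 1 kb. The CEN5 region (chrV:152367-153326) was called in 8 of 8 libraries, with its median summit 978 bp to the right of the centromere and at -438 bp from the coding start of MNN1, a mannosyltransferase of the Golgi. Its fold enrichment was 4.53 and 3.66 in HPRT1R episome libraries, 4.67 and 4.52 in HPRT1R integrated, 4.30 and 3.40 in HPRT1 episome and 3.38 and 3.72 in HPRT1 integrated libraries. The values of episome and integrated libraries overlapped.

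The CEN11 region (chrXI:439562-439887) lay 450 bp to the left of the centromere and at -294 bp from the coding start of MET14, the kinase that activates adenylylsulfate in sulfate assimilation. It was called in 6 libraries and in neither HPRT1R episome library, where the nearest summits to CEN11 were 8522 and 8520 bp away. Its fold was 3.43 and 3.68 in HPRT1R integrated, 3.11 and 3.78 in HPRT1 episome and 4.94 and 2.86 in HPRT1 integrated libraries. A missing peak says that the pile-up did not reach the threshold of the caller there, not that the site was closed.

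The sequences of both summits and of 3 further ones are shown to give the promoters that carried peaks within 20 kb of centromeres. Each is 121 bases on the plus strand around the median summit (RefSeq, R64), with matches to CACGTG, the site of Cbf1 and related factors, or to TTACCCG, the site of the general factor Reb1, in capitals. MNN1 has chrV:153022-153142, MET14 chrXI:439619-439739, MIX17 chrXIII:271752-271872, TDH2 chrX:454988-455108 and PSR1 chrXII:130910-131030.
MNN1: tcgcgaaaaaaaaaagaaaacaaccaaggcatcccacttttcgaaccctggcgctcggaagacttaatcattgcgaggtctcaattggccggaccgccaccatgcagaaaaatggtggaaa
MET14: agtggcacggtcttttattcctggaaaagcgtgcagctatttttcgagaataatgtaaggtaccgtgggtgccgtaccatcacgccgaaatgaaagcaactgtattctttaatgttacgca
MIX17: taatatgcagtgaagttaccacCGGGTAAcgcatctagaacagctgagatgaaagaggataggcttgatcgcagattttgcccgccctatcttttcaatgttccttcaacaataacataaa
TDH2: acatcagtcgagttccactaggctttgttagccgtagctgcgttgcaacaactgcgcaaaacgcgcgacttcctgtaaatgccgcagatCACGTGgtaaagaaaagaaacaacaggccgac
PSR1: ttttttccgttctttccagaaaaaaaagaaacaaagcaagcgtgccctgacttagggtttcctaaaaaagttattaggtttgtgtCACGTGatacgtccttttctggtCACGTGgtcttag
The windows of MNN1 and MET14 held no match to either motif, that of MIX17 held TTACCCG on the minus strand, that of TDH2 held CACGTG once and that of PSR1 held CACGTG at more than one place. In windows of 201 bp around the median summits, both strands searched, CACGTG was found in 6 of 95 regions near centromeres (6.32%), against 5.27% of 1745 regions in the rest and 1.49% of all genome tiles of the same length. TTACCCG was found in 7 of 95 (7.37%), against 8.54% of regions in the rest and 1.24% of tiles. Of the letters of the centromere's own elements, TCACNTG, which overlaps CACGTG, was in 13.7% of the regions near centromeres against 10.5% of those in the rest and 6.86% of tiles, and TTCCGAA in 2.11% against 2.75% and in 2.43% of tiles. These shares are descriptions of letters and were not tested.

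The 403 members fell in 95 regions. A peak was present in all 8 libraries in 19 of the 95 (20%), against 481 of 1745 regions in the rest (27.6%), and the share over all 1840 nuclear regions was 27.2%. At least 6 libraries had a peak in 37 of 95 regions (38.9%), against 42.5% in the rest, and 23 of 95 (24.2%) were in 1 library only, against 25.8% in the rest. Per Mb there were 29.6 regions in all 8 libraries near centromeres and 42.1 in the rest, and 148.0 and 152.7 regions in any library. Regions in 2 libraries were denser near centromeres (31.2 per Mb against 15.7 in the rest), as were those in 6 libraries (17.1 against 9.27). Regions in 1 library (35.8 against 39.5), 3 (12.5 against 13.4), 4 (7.79 against 9.97), 5 (3.12 against 9.19) and 7 libraries (10.9 against 13.6) were less dense there. These densities describe 2 to 23 regions per class near centromeres and were not tested. Of the 19 regions in all 8 libraries, placed by median summit, 1 lay within 1 kb, 0 from 1 to 2 kb and 2 from 2 to 5 kb. A further 5 lay from 5 to 10 kb and 11 from 10 to 20 kb.

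**Figure D4:**
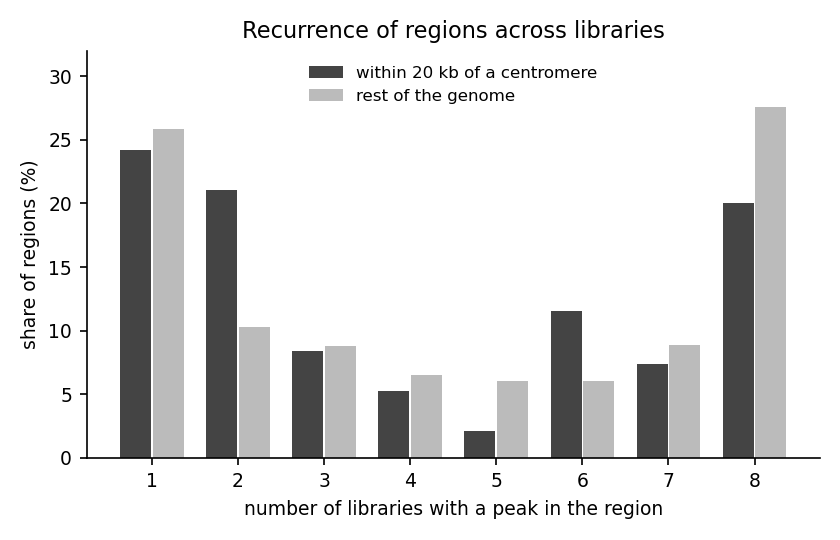
Share of regions (%) by the number of libraries with a peak in the region, for the 95 regions within 20 kb of a centromere and the 1745 in the rest of the genome. The shares in all 8 libraries are 20% and 27.6%, and in 1 library 24.2% and 25.8%.

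How far the lists of different libraries covered the same bases was also described. The Jaccard index, shared bases over bases in either list, averaged 0.502 between the 2 clones of a strain (0.471 to 0.538, 4 pairs) and 0.478 between strains (0.415 to 0.537, 24 pairs) near centromeres. In the rest it averaged 0.517 (0.485 to 0.547) and 0.506 (0.485 to 0.547). The ranges of clones and of different strains overlapped, so clones of a strain were not set apart from other pairs. The pairs share libraries and were not tested.

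Beside CEN5 and CEN11, the sites nearest to a centromere that recurred in at least 6 libraries lay at genes of varied roles. At CEN2 this was the promoter shared by HTA2 and HTB2, which code for core histones (chrII:236012-236298), 1996 bp from the centromere and called in 6 libraries. Its fold was 4.38 in HPRT1R episome replicate 1, 3.58 and 4.69 in HPRT1R integrated, 3.41 in HPRT1 episome replicate 1 and 4.03 and 3.29 in HPRT1 integrated libraries, and both libraries without a peak there were episome clones. At CEN13 it was the divergent region of MIX17, a mitochondrial intermembrane space protein, and YMR001C-A (chrXIII:271423-272275), 3663 bp away and called in 8 of 8 libraries at 3.41 to 5.86.

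At CEN14 it was a site over the tRNA gene YNCN0017W between CIT1, the mitochondrial citrate synthase, and ATO2 (chrXIV:632343-632891), 3770 bp away and in 8 of 8 libraries at 3.08 to 5.14. At CEN8 the region covered the start of SHU1, a member of a complex that acts in recombinational repair (chrVIII:98014-99092), 7068 bp away, in 8 of 8 libraries at 4.15 to 7.18. Most other centromeres had their first recurrent site only beyond 8 kb. These were ILV6, the regulatory subunit of acetolactate synthase, 8696 bp from CEN3, SSA1 and EFB1 9706 bp from CEN1, RPB11 and SIN3 10138 bp from CEN15, a region over the tRNA gene SUP51 11899 bp from CEN10, BRP1 13487 bp from CEN7, YDR010C 15470 bp from CEN4, HAA1 16328 bp from CEN16 and PSR1 19858 bp from CEN12. CEN6 and CEN9 had no region in 6 or more libraries within 20 kb.

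The highest members reached a fold of 7.2, at YDR010C in HPRT1R integrated replicate 2, against up to 18.2 elsewhere, and the lowest had 2.14, next to ECT1 in HPRT1 episome replicate 2 (median of the 403, 3.43). By mean rank within the lists, the leading region in all 8 libraries was that over YDR010C, a small open reading frame near GAL3 (chrIV:465084-465750, mean fold 5.61 ± 0.90, SD, n = 8). It was followed by SHU1 (5.39 ± 1.00), a Ty1 element gene YAR010C near CEN1 (5.25 ± 1.05), YEL008W near CEN5 (4.82 ± 0.66) and the tRNA gene SUF2 near CEN3 (4.83 ± 0.76). YHR007C-A near CEN8 (4.62 ± 0.53), SUP51 near CEN10 (4.72 ± 0.84), MIX17 (4.43 ± 0.81), the ribosomal protein gene RPL14A near CEN11 (4.58 ± 1.06) and SSA1, a cytosolic chaperone (4.42 ± 0.96), completed the 10 leading regions. Ty1 genes exist in many near-identical copies, so the placement of reads at YAR010C is uncertain.

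**Figure D5:**
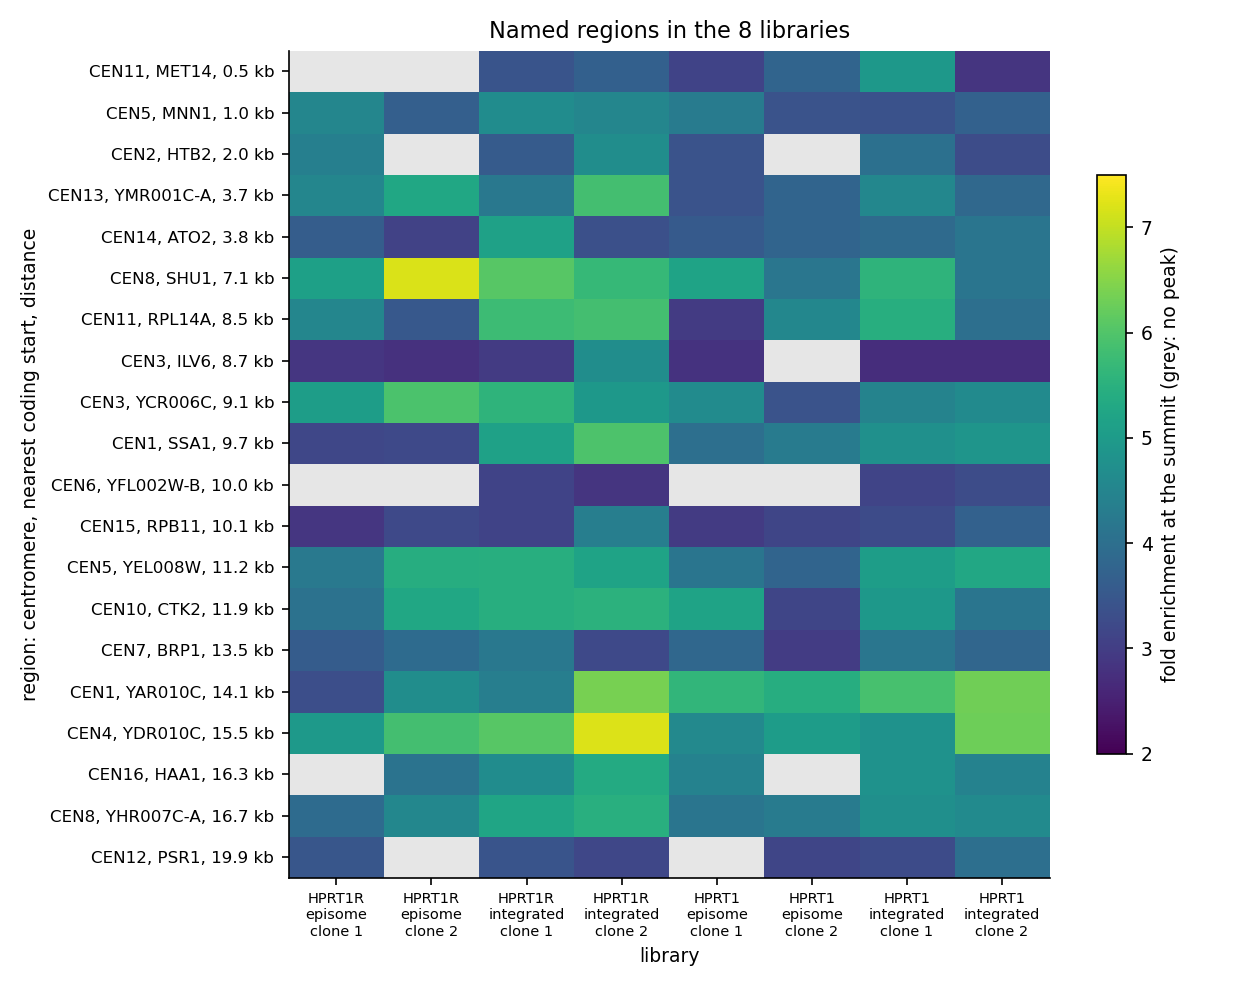
Fold enrichment at the summit in each of the 8 libraries for the 20 named regions, from the nearest to a centromere at the top to the furthest, with grey where a list had no peak. MNN1 and SHU1 have a value in every library, MET14 lacks one in both HPRT1R episome libraries and YFL002W-B in all 4 episome libraries.

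Over all members, peak height was slightly lower than elsewhere. The median fold was 3.02 to 3.64 per library near centromeres and 3.15 to 4.02 in the rest, and the difference of the medians on the log2 scale was -0.07 ± 0.07 (SD, n = 8, lower in 7 of 8 libraries, exact two-sided sign-flip p = 0.0234). The call was lost with the mean in place of the median (-0.03, exact p = 0.0625), within 10 kb (-0.02) and from a −log10 q of 5 upward (-0.00), and the sign turned from a −log10 q of 10 upward (0.03, exact p = 0.313). Members were also narrower, with a median width of 241 to 306 bp per library against 281 to 316 bp in the rest, which was not tested.

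Member summits lay within protein-coding genes more often than other summits, though at few places. The share of summits outside coding genes was 71.4% to 79.5% per library near centromeres and 80.8% to 83.0% in the rest, a difference of -6.57 ± 3.81 percentage points (SD, n = 8, lower in 8 of 8, exact two-sided sign-flip p = 0.00781). It did not hold within 10 kb (1.24 points, exact p = 0.602) or against flanks of 20 to 60 kb (-3.21, exact p = 0.117). Of the member summits 100 lay in coding genes, while 22 regions had their median summit in one, and the test counts the same regions in each library. These regions include the Ty genes YAR010C (15 peaks), YBL005W-A (6 peaks) and YFL002W-B (4 peaks), where read placement is uncertain. They also include YDR010C, YEL008W and BRP1, with 8 peaks each. The median summits there lay 92, 236 and 173 bp past the coding start. By kind of place, 24.6 ± 3.4% of member summits lay in coding genes against 18.1 ± 0.8% in the rest, 41.4 ± 3.0% between divergent genes against 41.4 ± 1.1%, 32.1 ± 4.3% between tandem genes against 34.6 ± 1.7% and 1.94 ± 1.47% between convergent genes against 3.51 ± 0.31% (SD, n = 8). Among the leading regions, the median summit lay 92 bp past the coding start of YDR010C and 277 bp past that of SHU1, inside both genes. The median position of the summit relative to the nearest coding start was -197 ± 37 bp near centromeres and -259 ± 8 bp in the rest (mean and SD of 8 library medians, negative upstream).

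Of the 4 feature lists within 20 kb, transfer RNA genes, transcribed by RNA polymerase III, had the highest share with a peak. A peak overlapped 46.2 ± 11.6% of the 26 tRNA genes there, against 51.4 ± 6.1% of 249 in the rest (SD, n = 8). Over the libraries 20 of the 26 had a peak at least once and 4 in all 8, namely TGA1, SUF2, SUP51 and YNCN0017W. The genes SUF20, SUP11, YNCI0011W, YNCK0016W, YNCO0012C and YNCP0008C had none. Many tRNA genes have near-identical copies elsewhere, so reads within them may be placed at any of them. tRNA genes were denser near centromeres than elsewhere, at 40.5 against 21.8 per Mb, and so were annotated replication origins (53.0 against 27.8) and long terminal repeats (62.3 against 30.1).

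Origins and repeats carried few peaks. A peak overlapped 3.31 ± 1.04% of 34 origins near centromeres against 6.88 ± 1.08% of 318 in the rest, and only ARS1016, beside TDH2, was overlapped in all 8 libraries, with ARS806 in 1. For long terminal repeats the shares were 4.06 ± 2.65% of 40 against 10.8 ± 1.5% of 344, and 34 of the 40 had no peak in any library. Coding starts had a summit within 500 bp in 15.7 ± 3.9% of 334 genes against 17.4 ± 1.7% of 5668, and 223 of the 334 had none in any library (SD, n = 8 throughout). None of these shares was tested.

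Relative to the rest of its own genome, each of the 4 episome libraries had a lower density of peaks within 20 kb of centromeres than any integrated library. The log2 density ratio averaged -0.36 ± 0.13 in the 4 episome libraries and -0.05 ± 0.07 in the 4 integrated ones (SD). The difference was -0.31, with -0.41 for HPRT1R and -0.20 for HPRT1, and the exact two-sided permutation p within each locus was 0.0556, the lowest value its 36 arrangements can give. A test within loci thus cannot pass the threshold of 0.05 here. Within 10 kb in place of 20 kb the contexts overlapped and the difference was -0.21 (exact p = 0.167), and within 20 kb without HPRT1 integrated replicate 1 it was -0.28 (exact p = 0.111). In counts, 39, 42, 46 and 43 members in episome libraries stood against 66, 61, 58 and 48 in integrated ones, and 14 of the 16 centromeres had fewer episomal members. The episome lists were shorter overall (988 to 1041 nuclear peaks against 993 to 1284), and their lowest local backgrounds were 5.63 to 6.93 fragments against 4.97 to 6.70. The part of list length and depth in the difference was not tested further than by the next value. With each list held to its 988 peaks of highest −log10 q, the difference was -0.25 (exact p = 0.0556).

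The distance bins were also set side by side. The inner bins overlapped between contexts, with a ratio to the rest of 0.174 to 0.714 in episome and 0.554 to 0.714 in integrated libraries from 0 to 1 kb, and of 0.189 to 0.374 and 0.322 to 0.880 from 1 to 2 kb. From 10 to 20 kb the ratio to the rest was 0.891 to 0.972 in episome and 1.1 to 1.29 in integrated libraries, which did not overlap. From 2 to 5 kb it was 0.238 to 0.499 against 0.536 to 1.06, also without overlap, and from 5 to 10 kb 0.713 to 1.06 against 0.704 to 0.986, with overlap. The differences within bins were not tested. HPRT1R strains differed from HPRT1 strains by -0.08 on the log2 scale within 20 kb (exact permutation p within each context = 0.333), and the sign changed without HPRT1R episome replicate 1 (0.01). Within 10 kb this contrast of loci was -0.31 (exact p = 0.0556, the smallest possible), where that of contexts was -0.21.

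By region, 15 of the 95 were called in more episome libraries and 49 in more integrated libraries, against 397 and 664 of 1745 regions in the rest. A region in 4 integrated and 0 episome libraries was found once among the 95, where 0.272% of the 1840 regions had this pattern, and one in 4 episome and 0 integrated libraries 0 times, where 0.109% had it. The 1 region lay in the Ty2 element gene YFL002W-B near CEN6 (chrVI:138395-138720), 9996 bp from the centromere, with folds of 3.11 and 2.85 in HPRT1R integrated and 3.12 and 3.29 in HPRT1 integrated libraries, and, as a repeated element, it is uncertain in its read placement. Among regions called in all 8 libraries, the 4 episome folds all lay below the 4 integrated folds in 2 of 19 near centromeres, against 8% of 500 in the whole genome, and all above in 0 of 19, against 0.2%.

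These 2 regions were the divergent promoter of SSA1 and EFB1, a translation elongation factor, and the site by YHR007C-A next to ERG11, an enzyme of ergosterol synthesis. SSA1 had folds of 3.17 and 3.22 in HPRT1R episome and 4.0 and 4.29 in HPRT1 episome libraries, against 5.14 and 5.96 in HPRT1R integrated and 4.75 and 4.86 in HPRT1 integrated libraries. YHR007C-A had 3.92, 4.54, 4.15 and 4.29 in the episome libraries, against 5.24, 5.47, 4.74 and 4.63 in the integrated ones. A share of 2 in 19 is near the background and is no result about centromeres.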

How the data were processed

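Transposase-accessible DNA of 8 yeast libraries was sequenced as paired ends of 36 bp. Per the submitters' processing notes and the study's methods, the authors aligned trimmed reads with Bowtie2 2.2.9 to sacCer3, to which the synthetic construct had been added as an extra contig. The methods also name references with the construct inserted at its integration site. Summits of the RPL14A region near CEN11 on chromosome XI lay within 189 bp over all 8 libraries, so positions there were not shifted between contexts. They called peaks with MACS2 2.1.0 on whole fragments, per library, without a control, keeping duplicates. Each deposited peak has a fold enrichment (a ratio of summit pile-up to local background within its own library), and the authors' −log10 p-value and −log10 q-value. Read totals are not listed, and intervals for sampling error were not computed. A deeper library gives the caller more power, so peak numbers are not independent of depth. By the stand-in for depth, though, the longest list (1284 nuclear peaks, HPRT1R integrated replicate 1) had a lowest background of 5.42 fragments. The shortest (988, HPRT1 episome replicate 2) had 6.93. No shift to the transposase cut site is stated.

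Distances run from the summit to the nearest base of the centromere feature in the RefSeq R64 annotation, whose build matches the lists. Summit fragment counts and local backgrounds were recovered from the ratio and p-value of each peak, with a misfit of at most 0.001 for 99.3% to 99.6% of peaks. The density of summits per base was compared within each library, with a count of 0.5 for an empty bin, by exact two-sided sign-flip permutation tests over the 8 libraries (256 arrangements), which count clones as independent. Strains were compared by exact permutations within a stratum. The p-values measure the spread between libraries of 1 genome with the same 16 centromeres. The members and lists were chosen with earlier results of these data known.

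Named regions were those overlapping a centromere, the 10 with the highest mean within-list percentile of fold among those in all 8 libraries, the nearest in at least 6 libraries on each chromosome, and those in 4 libraries of one context and 0 of the other. MNN1, MET14, MIX17, TDH2 and PSR1 were taken for sequence display, TDH2 after its values were seen, as were the nearest peak at CEN4, the lowest member and the features counted as with or without peaks. Alternatives were q thresholds, equal list lengths, distance limits, other flanks, coding filters and left-out libraries. Replicate numbers did not pair the samples (correlations of clone differences -0.04 to 0.03 over 1840 regions). The mitochondrial genome (142 peaks) and the locus and vector (324 peaks) were left out. The tests were checked on simulated data in which each library was drawn independently. That check does not cover libraries that share sites, as the 8 libraries here do. Python 3.11.15, NumPy 2.4.6, SciPy 1.17.1 and matplotlib 3.10.9 were used.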

Additional observations from a re-analysis of the deposited data

Results flagged for a closer look

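In 27 groups of 4 or 8 libraries, a library was set against the others of its group. The measure was the gap to its nearest neighbour relative to the whole range. A value stood apart in 4 groups, where chance gives about 1 in 20 independent groups. The groups of 4 are parts of those of 8, so they are not independent. From 1 to 2 kb the same value was flagged among all libraries and among the integrated ones. The density from 1 to 2 kb had a log2 ratio of -0.18 in HPRT1R integrated replicate 1, above the other 7 libraries and above the other 3 integrated ones, with 3 summits in that bin. Among these 3 was the CEN5 site, at 1013 bp in this library. The nearest summit to CEN5 lay at 633 to 1042 bp over the libraries, so this site falls on either side of the 1 kb limit. In HPRT1R episome replicate 2 it lay at 1042 bp, and that library had 0 summits from 0 to 1 kb. From 1 to 2 kb HPRT1 episome replicate 2 stood below the other episome libraries at -2.40, with 0 summits, so that this value comes from the count of 0.5 used for an empty bin. The share of summits outside protein-coding genes differed from the rest by -1.89 percentage points in HPRT1 integrated replicate 2, closer to 0 than the other 3 integrated libraries.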

How the results depend on the processing

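The density within 20 kb kept direction and call under every alternative run, at log2 ratios of -0.54 to -0.18 (-0.24 to -0.16 with 1 library left out). For the overlap with centromeres the alternatives could only leave 0 of 16 at 0, so they do not bear on its stability. Within 10 kb the episome contrast was -0.21 and the HPRT1R contrast -0.31. With peaks of −log10 q of at least 5, the 0 to 1 kb bin (-0.60, adjusted exact p = 0.0586) and the 5 to 10 kb bin (-0.42) lost their call, the 10 to 20 kb bin turned to -0.17, and the fold difference fell to -0.00227. At a −log10 q of at least 10 the fold difference turned to 0.0265. Outside genes only, an alternative chosen after seeing the data, the 5 to 10 kb bin was -0.0636 and the 10 to 20 kb bin turned to -0.31. The fold difference also lost its call with 988 peaks per list (-0.0279, exact p = 0.25), within 10 kb (-0.0183) and as a mean (-0.0270). The share outside genes turned to 1.24 points within 10 kb and lost its call against 20 to 60 kb (-3.21).

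With 1 library left out, the bins ranged from -1.03 to -0.74 (0 to 1 kb), -1.61 to -1.30, -1.09 to -0.78, -0.25 to -0.17 and 0.02 to 0.10 (10 to 20 kb), the fold difference from -0.08 to -0.05, the share outside genes from -7.25 to -5.85 points, the episome contrast from -0.35 to -0.25 and the HPRT1R contrast from -0.16 to 0.00967, with the sign turned without HPRT1R episome replicate 1. The cause of these changes was not tested. With the replicate number as a block the episome contrast was -0.31 (exact p = 0.125, the smallest of 16 arrangements) and the HPRT1R contrast -0.08 (exact p = 0.5). The smallest p these permutation tests can give is 0.0556 without the block and 0.125 with it. Neither form can thus pass 0.05, and the block does not bear on stability.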
